A study of Macaca radiata with 6 samples.

Results

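CCL2, CCL8 and CCL5 are secreted CC chemokines that draw monocytes and T cells into tissue. They were read from all probe sets that the platform annotation assigns to 1 of these symbols alone, with no filter on brightness. They are 3 of 14132 annotated genes, read by 6 of the 52865 probe sets in the table, of which 1 reads CCL2, 3 read CCL8 and 2 read CCL5. The tissue was the corpus luteum, the gland that forms from the ovulated follicle and secretes progesterone, taken whole from female bonnet monkeys (Macaca radiata). The PGF2alpha group had received 3 intramuscular injections of prostaglandin F2-alpha, which induces luteal regression, at 59 µg/kg body weight. The vehicle group had received phosphate-buffered saline (PBS) intramuscularly. In both groups dosing was on day 10 of the luteal phase and the gland was taken 24 h later. Each group had 3 arrays (PGF2alpha replicates 1 to 3, vehicle replicates 4 to 6). The labels give 3 monkeys per group but tie no array to an animal, and a p-value here reflects variation among arrays that may be in part technical. The arrays carry rhesus probes, and a mismatch to the bonnet transcript would lower a signal in both groups.

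CC chemokines bind heparan sulfate on cell surfaces and vessel walls and act on G protein-coupled receptors of passing leukocytes. CCL2 (MCP-1) is the principal ligand of CCR2 on classical monocytes, CCL8 (MCP-2) is a close relative that binds several CC receptors, and CCL5 (RANTES) acts on T cells and monocytes through receptors that include CCR1 and CCR3. Macrophages, T cells, endothelium and fibroblasts can all make at least one of them, usually after inflammatory signals that act through NF-kB or interferon-activated factors. In whole tissue, more cells of a type and more RNA per cell cannot be told apart.

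Array medians of the signal ran from 115 to 134. Of 26944 probe sets bright enough to be tested, 1351 (5.01%) passed an adjusted p of 0.05, 815 (3.02%) higher and 536 (1.99%) lower after PGF2alpha. The number called was 364, 223 and 1903 when PGF2alpha replicate 1, 2 or 3 was left out, and 619, 633 and 435 when vehicle replicate 4, 5 or 6 was. By their hybridisation times the arrays fell into 2 runs, the second of which held PGF2alpha replicate 2 and vehicle replicate 4. Ratios of 3-prime to 5-prime control probe sets overlapped between the groups for beta-actin (1.73 to 1.78 after PGF2alpha, 1.49 to 2.25 in vehicle) and for GAPDH (1.26 to 1.42 and 1.31 to 1.52).

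All 3 chemokines rose after PGF2alpha by the probe set that stands for the gene, which is its tested probe set of highest mean signal. CCL2 rose about 5-fold (log2 fold change 2.32, SE 0.326, adjusted p = 0.00899), CCL5 by 1.81 (SE 0.337, adjusted p = 0.0218) and CCL8 by 1.44 on the log2 scale (SE 0.183, adjusted p = 0.00648). Fold changes here are on the log2(signal + 40) scale, which understates the change of dim probe sets, and adjusted p-values are from limma over all 26944 tested probe sets. Of all tested probe sets, 0.245% had a larger log2 fold change than CCL2 and 1.24% than CCL8. The median over all tested probe sets was -0.03. CCL2 and CCL8 kept their calls when any 1 array was left out, whereas CCL5 kept its call only when the array left out was PGF2alpha replicate 3.

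**Figure D1:**
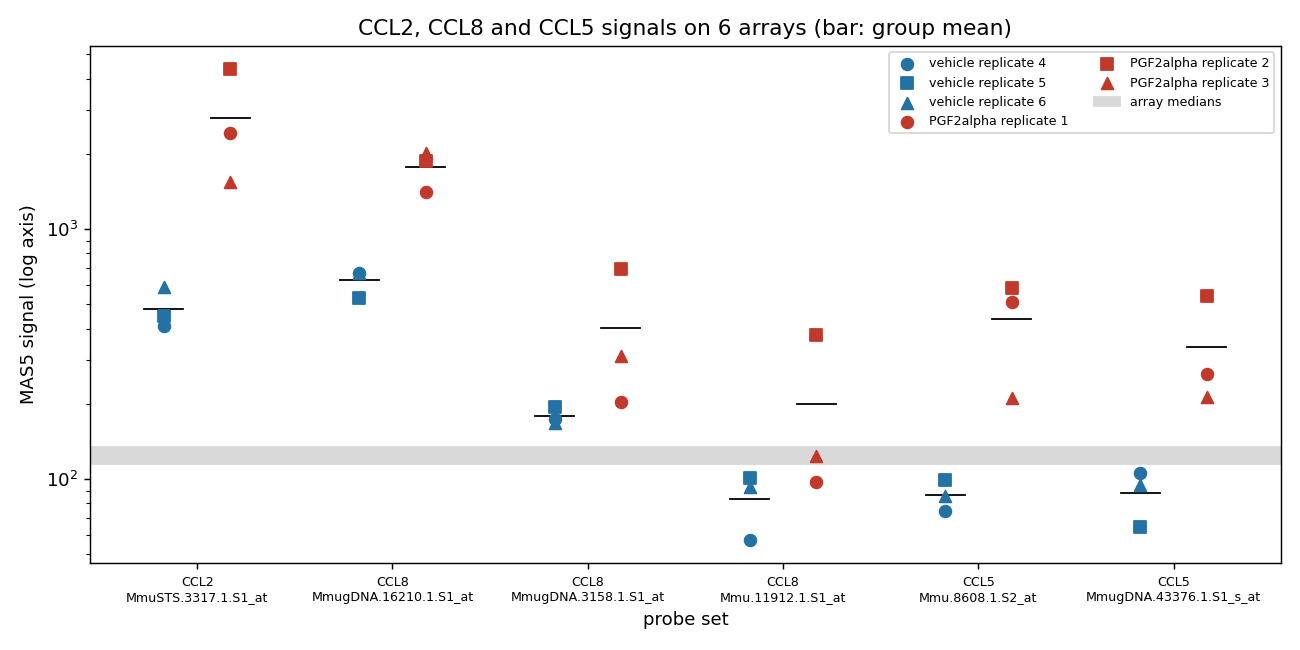
MAS5 signal (log axis) of the 6 probe sets on each of the 3 vehicle arrays (blue) and 3 PGF2alpha arrays (red), with bars at the group means and a grey band over the medians of the 6 arrays. In 5 of the 6 probe sets every PGF2alpha array lies above every vehicle array, and both CCL5 probe sets lie below the band in vehicle.

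CCL2 was read from a single probe set (MmuSTS.3317.1.S1_at). Its signal was 412, 447 and 585 in vehicle replicates 4, 5 and 6 and 2433, 4350 and 1538 in PGF2alpha replicates 1, 2 and 3. All treated arrays lay above all vehicle arrays, and the lowest treated signal was 2.63 times the highest vehicle signal. The group means were 481 ± 91.3 in vehicle and 2774 ± 1437 after PGF2alpha (SD, n = 3). The 95% confidence interval of the log2 fold change ran from 1.59 to 3.06, a fold of 3.00 to 8.31. The treated arrays spread more widely than the vehicle arrays, with 2.83-fold between the highest and lowest treated signal and 1.42-fold in vehicle. PGF2alpha replicate 2 was the highest and replicate 3 the lowest of them. The log2 fold change was 1.84 within run 1 (2 arrays per group) and 3.28 within run 2 (1 array per group, no test). Within run 1 alone the call was lost (adjusted p = 0.0608), and with the run as a block it was kept (adjusted p = 0.00932).

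CCL8 was read from 3 probe sets, which rose by different amounts and of which 1 was called. The brightest (MmugDNA.16210.1.S1_at) read 669, 532 and 669 in vehicle replicates 4, 5 and 6 and 1402, 1875 and 2019 in PGF2alpha replicates 1, 2 and 3. The treated arrays were all above the vehicle arrays and close to each other, with 1.44-fold between the highest and lowest. The means were 623 ± 79.5 and 1766 ± 323 (SD, n = 3), with a 95% confidence interval of 1.02 to 1.85 for the log2 fold change. For this probe set alone among the 3, the value was nearly the same in both runs, 1.44 within run 1 and 1.43 within run 2. Within run 1 alone its call was lost (adjusted p = 0.0736).

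The other CCL8 probe sets were dimmer and had larger treated spread. MmugDNA.3158.1.S1_at read 174, 194 and 167 in vehicle and 204, 691 and 310 in PGF2alpha replicates 1, 2 and 3. The groups did not overlap, but replicate 1 was only 1.06 times the highest vehicle array. The log2 fold change was 0.87 (SE 0.355, 95% confidence interval 0.07 to 1.67) and did not pass (adjusted p = 0.203). The dimmest CCL8 probe set read 57.3, 101 and 92.9 in vehicle and 97.3, 377 and 124 after PGF2alpha, so that the groups overlapped. It was at or above its array's median only in PGF2alpha replicate 2 and was not tested with the filter. Without the filter its log2 fold change was 0.79 (95% confidence interval -0.18 to 1.76, adjusted p = 0.471). PGF2alpha replicate 2 was the highest array in both dim probe sets, at 1.75 and 1.77 log2 units above the vehicle mean, where replicate 3 read 0.68 and 0.42 and replicate 1 read 0.17 in each. In the brightest probe set replicate 3 was highest. The log2 fold changes of the dim probe sets differed between the runs. MmugDNA.3158.1.S1_at stood at 0.41 within run 1 and 1.78 within run 2, and the dimmest at 0.13 and 2.10. With CCL8 taken as the mean over its 3 probe sets, an alternative chosen after the values had been seen, the log2 fold change was 1.03 and the call was lost (adjusted p = 0.0926).

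CCL5 was read from 2 probe sets, both dim in vehicle and both called. The brighter one read 74.6, 99.6 and 85.6 in vehicle replicates 4, 5 and 6 and 512, 583 and 211 in PGF2alpha replicates 1, 2 and 3. The lowest treated array, replicate 3, was 2.12 times the highest vehicle array. The means were 86.6 ± 12.5 and 435 ± 197 (SD, n = 3), and the 95% confidence interval of the log2 fold change was 1.05 to 2.57. The second probe set (MmugDNA.43376.1.S1_s_at), whose suffix marks possible cross-hybridisation, read 105, 64.1 and 94.7 in vehicle and 263, 541 and 213 after PGF2alpha. Its groups did not overlap either, and its log2 fold change was 1.48 (SE 0.331, adjusted p = 0.0371).

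Every vehicle signal of CCL5 lay below the median of its array, so no vehicle level was shown to be above background and the size of the fold is uncertain. Only the treated arrays carried the 2 probe sets past the filter, which favours a rise. Without the filter the first probe set was still called (adjusted p = 0.0424) and the second was not (adjusted p = 0.0751). The log2 fold change of the first ran from 1.21 with a pseudocount of 160 to 2.09 with a pseudocount of 10. Its adjusted p was 0.0843 and 0.0966 without PGF2alpha replicates 1 and 2, 0.0617, 0.0514 and 0.0689 without vehicle replicates 4, 5 and 6, and 0.00184 without PGF2alpha replicate 3. The second probe set lost its call without the same 5 arrays, with adjusted p from 0.0768 to 0.125. Within run 1 alone the log2 fold changes were 1.49 and 1.23, and neither was called (adjusted p = 0.183 and 0.191), while run 2 gave 2.44 and 2.0.

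Of the 6 probe sets, 4 were called higher, 1 did not pass and 1 was below the filter. Without the filter 3 of 6 were called, 1 for each gene, where 1.01% of all probe sets were called higher. All treated arrays lay above all vehicle arrays in 5 of the 6, against 9.21% of all probe sets, and in each of the 5 that were tested, against 13.0% of those tested. Since the CCL5 probe sets were tested only because of their treated arrays, these counts are a description.

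The 3 genes could not be shown to have risen by different amounts. The log2 fold change of CCL2 exceeded that of CCL8 by 0.89 (exact permutation p = 0.3), and that of CCL5 by 0.51 (exact permutation p = 0.2). CCL8 minus CCL5 was -0.37 (exact permutation p = 0.5), and this difference turned to 0.08 with a pseudocount of 160. The tests were two-sided over 3 pairs, adjusted p-values were 0.45, 0.45 and 0.5, and the smallest p that 3 against 3 arrays allow is 0.1. Within an array, CCL2 minus CCL8 ran from -0.38 to 1.2 after PGF2alpha and from -0.65 to -0.18 in vehicle. CCL2 minus CCL5 ran from 2.16 to 2.82 and from 1.80 to 2.31. These ranges overlapped between the groups for all 3 pairs. Both differences from CCL5 rest on vehicle signals below the array median, so their size is uncertain.

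The order of the treated arrays differed between the genes. For CCL2 and for both CCL5 probe sets it was replicate 2, then 1, then 3, an order found in 363 of the 815 probe sets called higher (44.5%). For the brightest CCL8 probe set it was replicate 3, then 2, then 1, found in 30 of the 815 (3.68%). PGF2alpha replicate 3 was the lowest treated array in 589 of them (72.3%).

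Receptors of the 3 ligands were measured for CCR1, CCR2 and CCR3 and for the atypical receptor ACKR1. The atypical receptors CCRL2 and ACKR4 were listed beside them. CCR1, a receptor of CCL5 and CCL8 on monocytes, read 182, 129 and 176 in vehicle and 496, 529 and 390 after PGF2alpha. The groups did not overlap, and their means were 162 ± 29.3 and 472 ± 72.3 (SD, n = 3). CCR1 rose by 1.34 on the log2 scale (SE 0.204, adjusted p = 0.0108). The call was lost without PGF2alpha replicate 2 (adjusted p = 0.0592).

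CCR2, the receptor of CCL2, rose by 2.14 (SE 0.415, adjusted p = 0.0249). It read 17.1, 10.6 and 8.84 in vehicle and 135, 355 and 135 after PGF2alpha. Every treated array lay above every vehicle array. Like CCL5 it was tested only because of its treated arrays, and its vehicle signals lay under the pseudocount, so the size of its fold is uncertain. Leaving out any array but PGF2alpha replicate 3 ended its call (adjusted p 0.0273 to 0.126 over the 6 fits).

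The other receptors did not pass. CCR3, the eosinophil receptor that also binds CCL5, stood at 0.55 (adjusted p = 0.464), with 404 in PGF2alpha replicate 2 and 123 to 160 in the other treated arrays and vehicle replicates 4 and 5. ACKR1, the Duffy antigen that carries chemokines across venular endothelium, stood at 1129 ± 453 in vehicle and 1515 ± 904 after PGF2alpha (0.36, adjusted p = 0.68). CCRL2, an atypical receptor of leukocytes, stood at 0.56 (adjusted p = 0.329). ACKR4, a scavenger of other CC chemokines, was below the filter in both groups. In all 2 of the 5 tested receptors of the list, CCRL2 included, rose and 0 fell. Of all 9980 tested genes 6.13% were called, 3.81% higher and 2.32% lower, and the same shares stand behind the counts of each list that follows. Since CCR2 was tested only because of its treated arrays, the receptor count is a description. That count was 1 without PGF2alpha replicate 1 or vehicle replicate 4, 5 or 6 and 0 without PGF2alpha replicate 2.

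**Figure D2:**
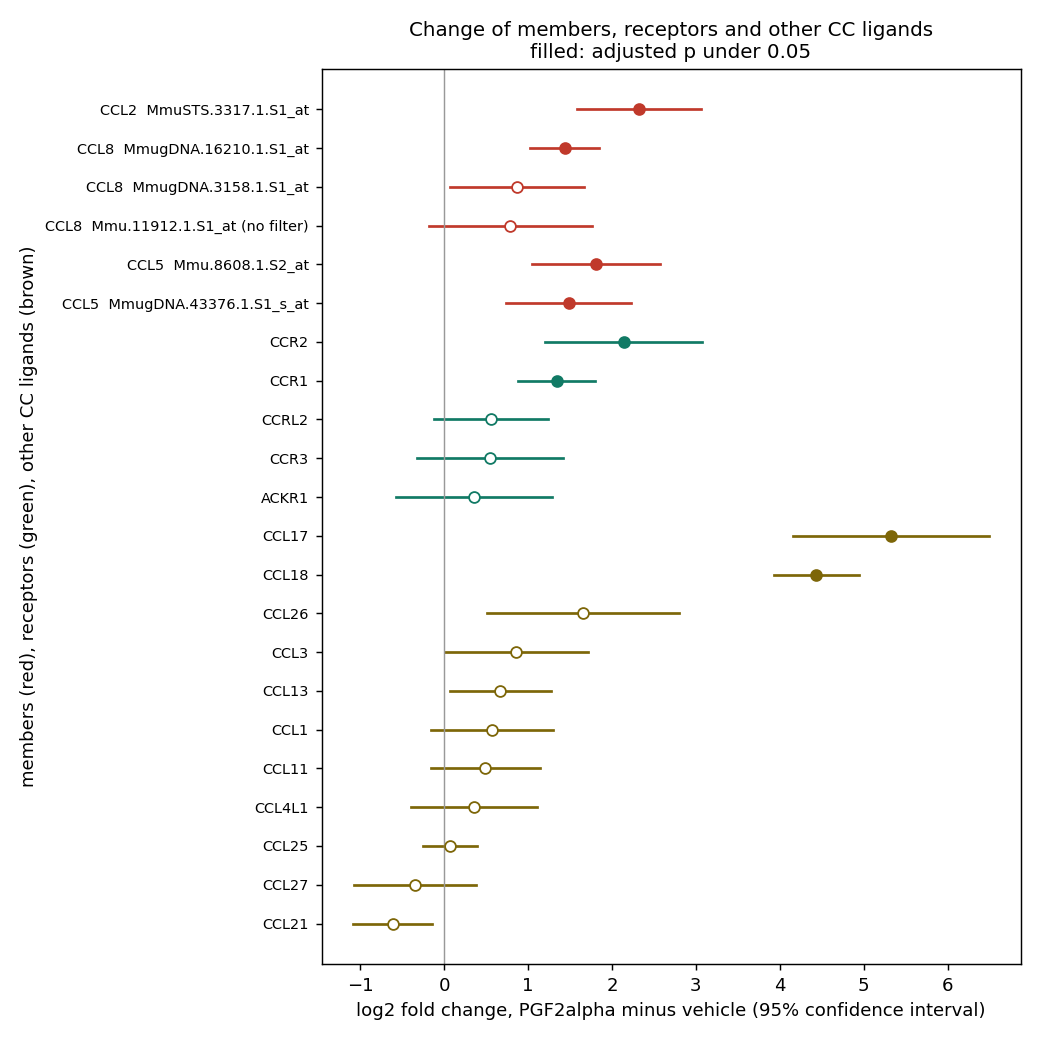
Log2 fold change, PGF2alpha minus vehicle, with its 95% confidence interval for the 6 member probe sets (red), the tested receptors (green) and the other tested CC ligands (brown), with filled points for an adjusted p under 0.05. CCL2 at 2.32 and the called CCL8 and CCL5 probe sets lie below CCL17 (5.33) and CCL18 (4.44), and the other ligands are not called.

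Of 11 other tested CC ligands, 2 rose and 0 fell, with a median log2 fold change of 0.57, beside -0.02 over all tested genes. Both exceeded the members in size of estimate. CCL18, a chemokine of alternatively activated macrophages, rose by 4.44 (adjusted p = 0.000195), and CCL17, a ligand of CCR4 on T cells, rose by 5.33 (adjusted p = 0.00278). CCL17 was tested only because of its treated arrays, so the count of ligands is a description. CCL13 (MCP-4), a relative of CCL2 and CCL8, stood at 0.67 (adjusted p = 0.189) and CCL11 (eotaxin) at 0.49 (adjusted p = 0.37). CCL3 (MIP-1-alpha), which shares CCR1 with CCL5, stood at 0.86 (adjusted p = 0.235). CCL26 stood at 1.65 (adjusted p = 0.0998), with groups that overlapped. CCL21 stood at -0.62 (adjusted p = 0.128), with groups that did not. Of the 11, 9 had a positive log2 fold change. The count of ligands called higher was 3 without PGF2alpha replicate 1 and stayed at 2 when any other array was left out. CCL7 and CCL4 are not named in the annotation used and were not analysed here.

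The cytokines known to induce the 3 chemokines were mostly dim on these arrays. TNF and IFNG lay below the array median on all 6 arrays, IL1A and IL6 reached it on 1 PGF2alpha array each, and none of the 4 passed the filter. IL1B was tested and stood at 177 ± 45.2 in vehicle and 267 ± 104 after PGF2alpha (0.47, adjusted p = 0.382). TLR4, the endotoxin receptor that also senses tissue damage products, was the 1 of 14 tested inducers that rose, from 186 ± 46.8 to 623 ± 78.9, by 1.57 (SE 0.202, adjusted p = 0.00652). Transcription regulators of the pathway did not pass, with STAT3 at 0.94 (adjusted p = 0.0678), RELB at 0.64 (adjusted p = 0.0754), CEBPB at 0.75 (adjusted p = 0.123), NFKB1 at 0.38 (adjusted p = 0.188) and IRF1 at 0.13 (adjusted p = 0.781). IRF7 had a negative value of -0.93 (adjusted p = 0.183), with its other tested probe set at 0.11. NFKB2 stood at -0.13 (adjusted p = 0.776), with its other tested probe sets at 0.38 and 0.58. The median over the 14 genes was 0.27, and the 1 call is 7.14% of them, beside 3.81% of all tested genes called higher. Without vehicle replicate 4 the count of inducers called higher was 2.

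Among 11 tested restrainers of NF-kB and cytokine signalling 2 rose (18.2%, beside 3.81% of all tested genes) and 0 fell, with a median of -0.02. Without PGF2alpha replicate 3 or without vehicle replicate 4, 1 was called lower. The 2 that rose were the interleukin-1 receptor antagonist IL1RN, from 296 ± 146 to 2837 ± 1345 (3.11, adjusted p = 0.00736), and the decoy receptor IL1R2 (3.11, adjusted p = 0.00725, with 1 of its 3 other tested probe sets at -1.04). The NF-kB inhibitor NFKBIA (0.04, adjusted p = 0.923) and the feedback deubiquitinase TNFAIP3 (-0.02, adjusted p = 0.961), both induced by NF-kB, did not pass. ZFP36, which speeds the decay of cytokine mRNAs, stood at -0.71 (adjusted p = 0.0899).

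Of 8 other tested genes known as NF-kB targets 1 rose (12.5%, beside 3.81% of all tested genes) and 0 fell, with a median of 0.75. It was urokinase PLAU (1.54, adjusted p = 0.00963), whose call was lost without PGF2alpha replicate 2 (adjusted p = 0.0541), so that the count was 0 there and 4 without PGF2alpha replicate 3. The complement factor CFB stood at 0.31 (adjusted p = 0.295), though its other tested probe set was called higher at 2.06. SOD2 (1.68, adjusted p = 0.0611, with its other tested probe set at -0.13), the neutrophil attractant CXCL8 (1.03, adjusted p = 0.31) and the endothelial selectin SELE (1.28, adjusted p = 0.245) did not pass. The vascular adhesion molecule VCAM1 stood at -0.12 (adjusted p = 0.784) and the interferon-induced chemokine CXCL11 at -0.56 (adjusted p = 0.212). Within the list the median was 0.30 in run 1 and 2.18 in run 2.

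Genes that cut or hold chemokines rose in part. Of 15 tested, 5 rose (33.3%, beside 3.81% of all tested genes) and 0 fell, with a median of 0.31. The heparan sulfate carriers syndecan-1 (SDC1, from 1367 ± 101 to 5150 ± 1726, by 1.83, adjusted p = 0.00589), syndecan-4 (SDC4, 1.14, adjusted p = 0.0188) and glypican-1 (GPC1, 0.97, adjusted p = 0.0157) were among them. So were the metalloproteinases MMP1 (1.91, adjusted p = 0.00732) and MMP9 (2.18, adjusted p = 0.0142). MMP1 was tested only because of its treated arrays, so the count of 5 is a description. Other carriers did not pass. Syndecan-2 (SDC2) stood at -0.90 (adjusted p = 0.217), with its other tested probe sets at -1.09 and -0.92. Syndecan-3 (SDC3) stood at 0.06 (adjusted p = 0.89), though its other tested probe set was called higher at 0.78. DPP4, the peptidase that trims the amino terminus of CCL5, stood at 0.24 (adjusted p = 0.554), and the heparan sulfate synthesis genes EXT1, EXT2 and NDST1 at -0.13, 0.25 and 0.19 (adjusted p = 0.654, 0.362 and 0.491). The count of 5 fell to 3 without PGF2alpha replicate 1, where SDC4 and GPC1 were lost, and to 3 without vehicle replicate 6, where the same pair was lost. SDC4 was also lost without PGF2alpha replicate 2 (adjusted p 0.0602 to 0.0762 without these 3 arrays).

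Genes of chemotactic signalling and of leukocyte and vessel wall adhesion held 3 calls, all higher. Of 10 tested genes downstream of chemokine receptors, 9 had a positive log2 fold change, with a median of 0.61, and 1 rose, beside 3.81% of all tested genes. It was CORO1A, an actin regulator of leukocytes (1.5, adjusted p = 0.0257), while DOCK2, the exchange factor that activates Rac in migrating leukocytes, stood at 0.74 (adjusted p = 0.0522). RAC2 (1.13, adjusted p = 0.0681) and ARRB1 (0.62, adjusted p = 0.0986) did not pass, though each had another tested probe set that was called higher. Of 10 tested adhesion genes 2 rose, the P-selectin ligand SELPLG (1.24, adjusted p = 0.0315) and the beta-2 integrin ITGB2 (1.52, adjusted p = 0.0491), and 0 fell. SELPLG was tested only because of its treated arrays, so the count of adhesion genes is a description. When any array but PGF2alpha replicate 3 was left out, all 3 calls ended and both counts were 0. Without replicate 3 they were 3 and 2. ITGB2 and SELPLG also lost their calls without the filter. Without a variance trend CORO1A and ITGB2 lost theirs. The ITGB2 call also ended with a pseudocount of 10, quantile normalization, robust eBayes or arrays scaled to 1 median.

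**Figure D3:**
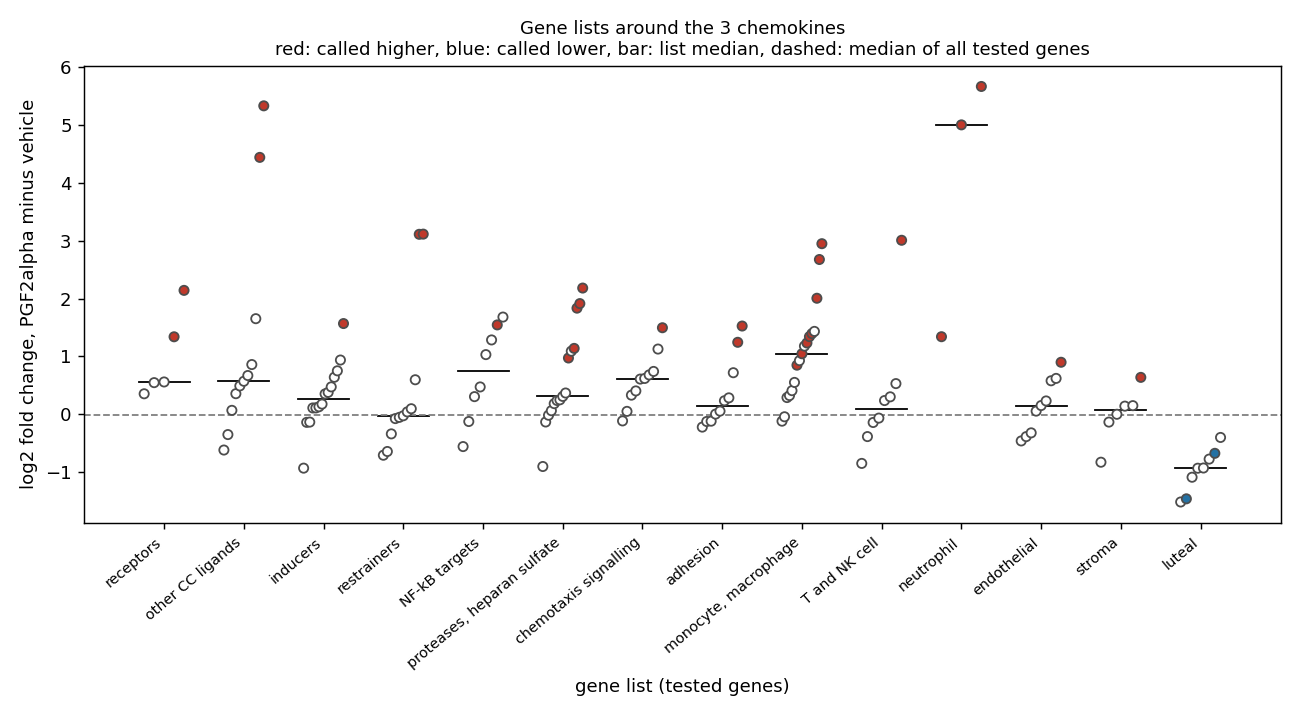
Log2 fold change, PGF2alpha minus vehicle, of the tested genes in 14 lists, with red points called higher, blue points called lower, bars at list medians and a dashed line at the median of all tested genes. Monocyte and macrophage markers have a median of 1.05, T and NK cell markers one of 0.09 and luteal markers one of -0.93.

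Markers of the cells that these chemokines attract were described by list, and no difference between lists was tested. Of 22 monocyte and macrophage markers 18 were named and 17 tested, and 8 rose (47.1%, beside 3.81% of all tested genes) and 0 fell, with a median of 1.05. The summed signal of the 18 was 21937 to 37047 in vehicle and 55440 to 89932 after PGF2alpha, highest in replicate 2, and no marker was at 0. The mannose receptor MRC1 rose from 1167 ± 59.5 to 9363 ± 1775 (2.95, adjusted p = 0.000195), MARCO by 2.67 (adjusted p = 0.00736), the oxidase subunit CYBB by 2.0 (adjusted p = 0.0106) and CD14, the marker of classical monocytes, by 1.23 (adjusted p = 0.0212). The other tested probe sets of MRC1 stood at 0.47 and 2.05, and 1 of these was called higher. FCN1, a marker of circulating monocytes, stood at 128 ± 37.3 and 124 ± 46.5 (-0.04, adjusted p = 0.959), and S100A12 did not pass the filter. With 1 PGF2alpha array left out (replicate 1, 2 or 3) the count of 8 became 4, 2 or 10, and with 1 vehicle array left out (replicate 4, 5 or 6) it was 8, 5 or 3. Within run 1 it was 1. CD14 was lost without PGF2alpha replicates 1 and 2 and vehicle replicate 6, CYBB without PGF2alpha replicate 2 (adjusted p = 0.0541), and MRC1 and MARCO kept theirs in all 6 fits. MARCO was tested only because of its treated arrays, so the count of 8 is a description. The part of these cells in the rise of the 3 chemokines was not tested.

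T and NK cell markers showed 1 call. Of 27 listed, 15 were named and 8 tested, and only GNLY, a cytolytic protein of NK and T cells, rose, by 3.01 (adjusted p = 0.00186), though its other tested probe set read 0.47. The called probe set carries the suffix that marks possible cross-hybridisation, and without such probe sets no T or NK marker was called higher. No gene of the CD3 complex is named in the annotation used. The summed signal of all 15 was 16465 to 20039 in vehicle and 29922 to 46523 after PGF2alpha. Without GNLY, a split made after its values had been seen, it was 13142 to 18066 and 14366 to 20130, so that the groups overlapped. The T cell antigens CD5 (-0.06, adjusted p = 0.914, with its other tested probe set at 0.31) and CD6 (-0.38, adjusted p = 0.506) did not pass. CD7, CD8A, CD8B, CD28, ICOS and CTLA4 did not pass the filter, and GZMA stood at -0.85 (adjusted p = 0.0584). ZAP70 stood at 0.53 (adjusted p = 0.328), GZMB at 0.30 (adjusted p = 0.59), KLRD1 at 0.24 (adjusted p = 0.373) and GZMK at -0.14 (adjusted p = 0.656). Of the 8 tested markers, GNLY included, 4 had a positive log2 fold change. With the run as a block, with array weights or without PGF2alpha replicate 3, 1 marker of the list was called lower. No T or NK marker was at 0, and 4 of the 15 lay below the array median on all 6 arrays.

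Markers of other cell types that could hold or make these chemokines were read in the same way. All 3 tested neutrophil markers rose, S100A9 (5.66, adjusted p = 0.00165), S100A8 (5.00, adjusted p = 0.00142) and LCN2 (1.34, adjusted p = 0.0441), out of 7 named. S100A8 and S100A9 were at or above the array median on only 1 vehicle array, which favoured a rise. The probe sets of S100A9 and LCN2 carry the suffix for possible cross-hybridisation, and without such probe sets the count was 1. The other 4 neutrophil markers did not pass the filter. Without it their log2 fold changes were -0.61 for ELANE, -0.28 for MPO, 0.16 for MMP8 and 1.09 for CSF3R, and none was called. LCN2 kept its call only without PGF2alpha replicate 3 or vehicle replicate 5 among the 6 fits that left out 1 array (adjusted p up to 0.16). Of 9 endothelial markers CLDN5 rose (0.90, adjusted p = 0.0266, kept in the same 2 fits and up to 0.103 in the others), with 0 lower and a median of 0.15. Of 6 fibroblast and mural markers DCN rose (0.64, adjusted p = 0.0421, kept only without PGF2alpha replicate 3 or vehicle replicate 6 and up to 0.144 in the others), with 0 lower and a median of 0.07. Neither of 2 tested B cell markers passed, and all 3 named mast cell markers were below the array median on all 6 arrays. LCN2 and DCN also lost their calls without the filter or with quantile normalization, and LCN2 with robust eBayes or with the run as a block. Without a variance trend LCN2, DCN and CLDN5 lost theirs, and DCN did with array weights. Summed signals were 3485 to 6764 in vehicle and 11940 to 29400 after PGF2alpha for neutrophil markers, 26018 to 29536 and 25218 to 35947 for endothelial markers, and 59003 to 80442 and 77309 to 92857 for fibroblast and mural markers. No marker of these lists was at 0. Their part in the chemokine signals was not tested.

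Of 8 tested luteal cell markers 2 fell and 0 rose, beside 2.32% of all tested genes called lower. All 8 had a negative log2 fold change, with a median of -0.93, and the other 6 did not pass. STAR, the cholesterol carrier of steroid synthesis (-0.67, adjusted p = 0.0497), and CYP17A1 (-1.46, adjusted p = 0.0299) fell. STAR read 63395 ± 7411 in vehicle and 40203 ± 8854 after PGF2alpha (SD, n = 3), so the labelled tissue's marker was bright in both groups. The count of 2 was 0 without PGF2alpha replicate 1 or 2, 5 without replicate 3 and 1 when any 1 vehicle array was left out. The call for STAR ended when any array but PGF2alpha replicate 3 was left out (adjusted p up to 0.169), and also without the filter, with a pseudocount of 10, with arrays scaled to 1 median, with the run as a block, without a variance trend and without cross-hybridising probe sets. CYP17A1 also lost its call without a trend, so that 0 luteal markers were then called. Within run 1 alone, the calls named above that were kept were those of CCL17, CCL18, IL1RN, MRC1, GNLY, S100A8 and S100A9.

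The genes whose profile was most like each chemokine were named by the root mean square difference, over the 6 arrays, of log2(signal + 40) minus the vehicle mean, among 9979 other tested genes. For CCL2 they were the long pentraxin PTX3 (0.174), MMP9 (0.248), the BH3-only protein PMAIP1 (0.251) and the stromelysin MMP10 (0.279). Each of these, like CCL2, was highest in PGF2alpha replicate 2 and lowest of the treated arrays in replicate 3. PTX3 read 2.38, 3.28 and 1.33 log2 units above the vehicle mean in PGF2alpha replicates 1, 2 and 3, and CCL2 read 2.26, 3.09 and 1.61.

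For CCL8 the nearest were the fructose transporter SLC2A5 (0.196), apolipoprotein D (APOD, 0.211), the collagen lysyl hydroxylase PLOD2 (0.211) and the macrophage complement receptor VSIG4 (0.218). Their treated arrays lay close together, as did those of CCL8 at 1.13, 1.54 and 1.64. For CCL5 they were the calcium sensor HPCAL1 (0.15), the ATP-gated channel P2RX4 (0.185), the pore-forming protein GSDME (0.192) and C1H1orf162 (0.203). CCL5 read 2.13, 2.30 and 0.99, with replicate 3 well below the others. The chemokines were less like each other by this measure than like these genes. Among 9979 genes, CCL5 ranked 27th in likeness to CCL2, at 0.438, and CCL8 ranked 151st, at 0.798. These lists describe 6 arrays and were chosen by their values. A shared order or spread of the treated arrays follows from that choice, and no test is given.

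**Figure D4:**
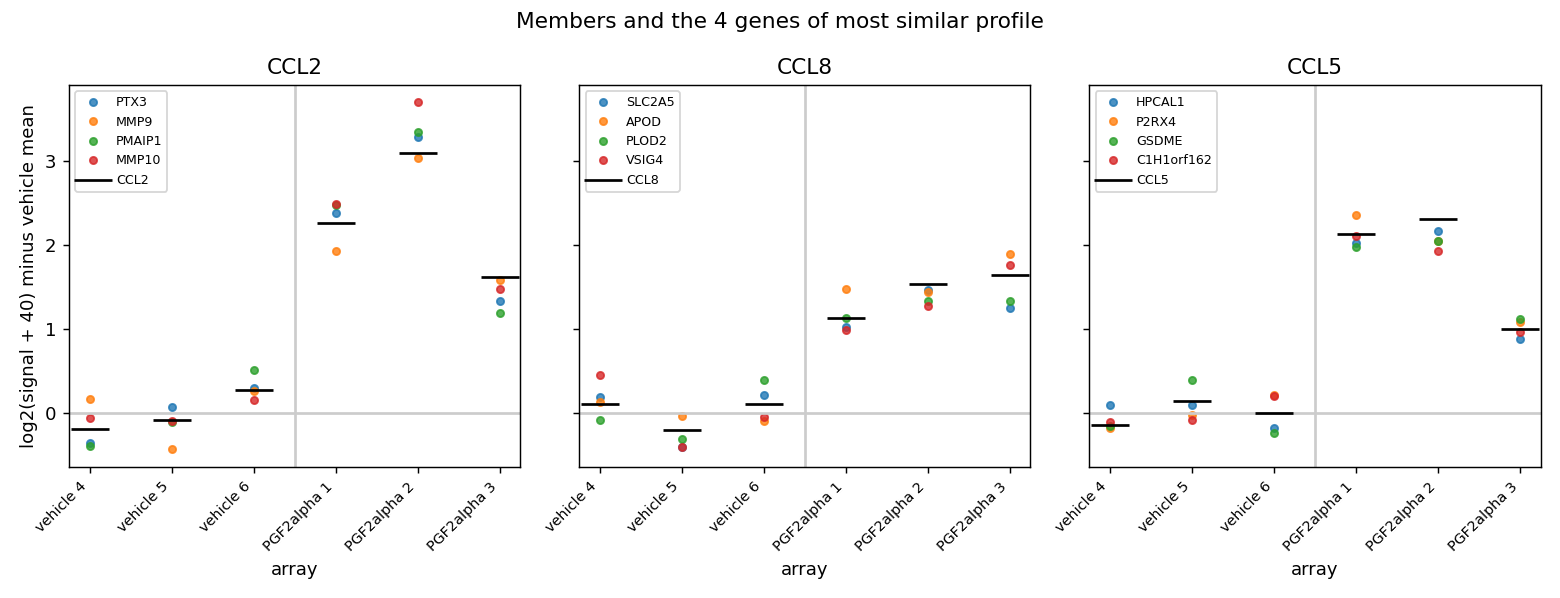
Log2(signal + 40) minus the mean of the 3 vehicle arrays, on each of the 6 arrays, for CCL2, CCL8 and CCL5 (black bars) and the 4 tested genes of most similar profile (coloured points). CCL2 peaks in PGF2alpha replicate 2 at 3.09, CCL8 is between 1.13 and 1.64 on all treated arrays, and CCL5 is lowest in replicate 3 at 0.99.

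**Figure D5:**
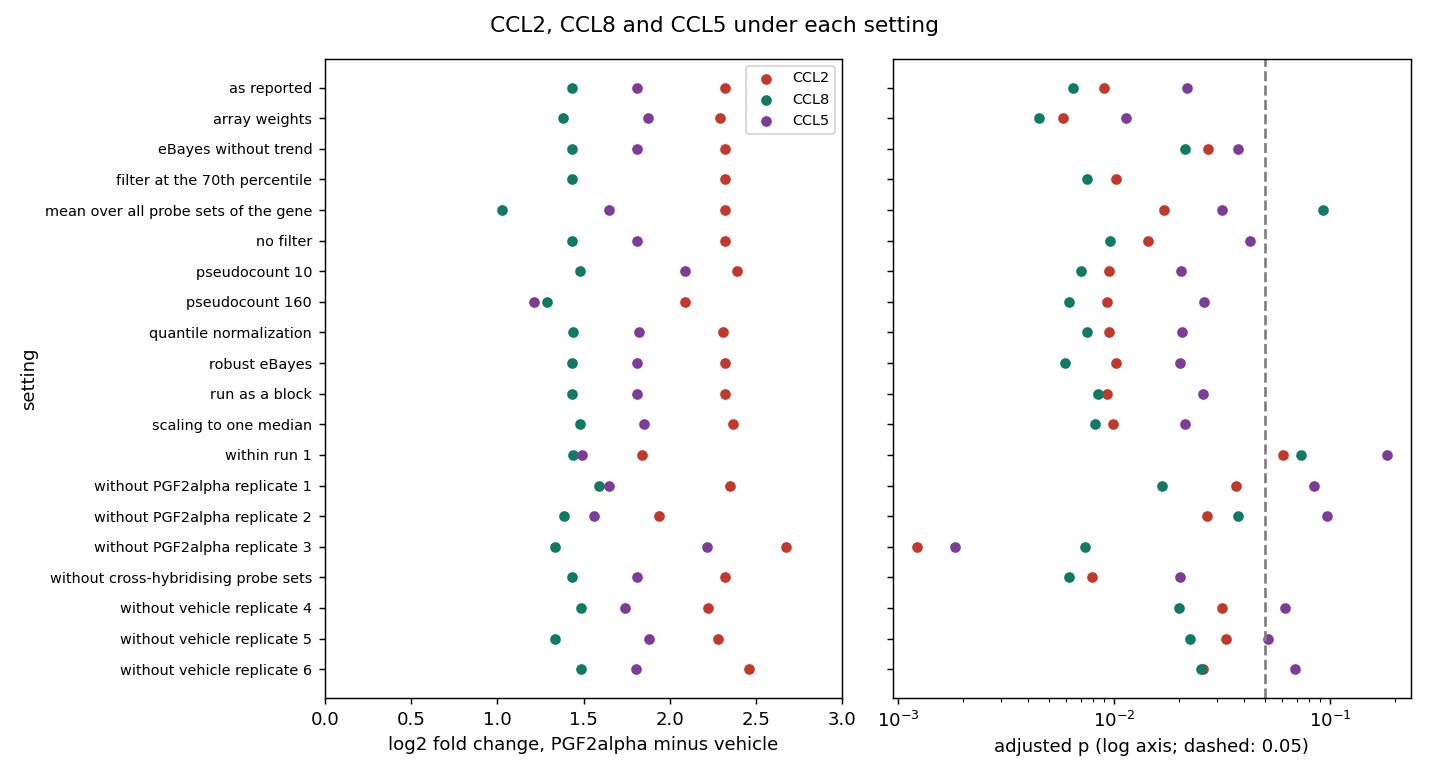
Log2 fold change (left) and limma adjusted p on a log axis (right, dashed line at 0.05) of CCL2, CCL8 and CCL5 as reported and under each other setting that gave a test. The log2 fold changes shown are all above 0. Within run 1 all 3 genes lie past 0.05, CCL8 does so as the mean over its probe sets, and CCL5 does so when any array but PGF2alpha replicate 3 is left out.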

How the data were processed

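Each probe set's value is a linear MAS5 signal intensity as the authors deposited it, per the submitters' processing notes. After trimming 2% from both ends, every array had a mean of 500, and no further normalization was applied. The deposited scanner experiment files hold other settings of the instruments, and gave the hybridisation time. The runs were inferred from gaps between these times. Of 52865 probe sets, 99 controls were left out of tests. The platform annotation, which can be old, gave 1 symbol for 24969, several for 361 and none for 27535.

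Values were taken as log2(signal + 40), 40 being near the 25th percentile of all values (39.6). A probe set was tested if at or above its array's median on at least 3 of 6 arrays. Groups were compared with limma 3.58.1 in R 4.3.3 (eBayes with trend, two-sided, Benjamini-Hochberg over all tested probe sets, threshold 0.05), which was also tested on simulated data. No detection calls were used, and precision is limited by the number of arrays. The members and gene lists were chosen with earlier results of these data known. Named genes are all members, all their receptors, up to 4 called genes of smallest p per list (the 2 of smallest p where under 2 were called) and the 4 nearest profiles per member. Other genes named in the text were chosen after their values were seen. Alternatives covered pseudocount, filter, normalization, variance model, array weights, run, cross-hybridising probe sets and each array left out.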

Additional observations from a re-analysis of the deposited data

How the results depend on the processing

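No paired analysis was possible because the replicate numbers of the groups (1 to 3 and 4 to 6) are not shared. The number of called probe sets was 669 with eBayes without trend, 826 without a filter, 51 within run 1, and 223 to 1903 with 1 array left out. CCL2 had a log2 fold change of 1.84 within run 1 and 3.28 within run 2. CCL8 stood at 1.44 within run 1, at 1.03 as the mean over its probe sets (an alternative added after seeing the data), and at 0.87 and 0.79 by its other probe sets. CCL5 stood at 1.49 within run 1, at 2.44 within run 2 and at 1.56 to 2.22 with 1 array left out. CCL8 minus CCL5 turned from -0.37 to 0.078 with a pseudocount of 160. Within run 2 the list medians turned to 0.044 for the restrainers, -0.20 for adhesion, -0.11 for T and NK cell markers and -0.19 for stroma. The causes were not tested. Under the other alternatives run (pseudocount, filter, quantile and median scaling, variance model, weights, run as a block, cross-hybridising probe sets) all 3 members kept their direction and call, except that the second CCL5 probe set lost its call without a filter or a trend. With the filter at the 70th percentile CCL5 was not tested and gave no value. With 3 arrays per group and no detection calls, the low vehicle levels of CCL5 and CCR2 limit what their folds show.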

Other observations

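Some genes around the chemokines that were too dim to be tested with the filter had groups that did not overlap. They were chosen after their values were seen, and PTK2B and CD79A of the lists, also below the filter, had such groups too. Of all probe sets, 9.21% had all PGF2alpha arrays above all vehicle arrays, so such a pattern was common. IL6, an inflammatory cytokine, read 61.1 ± 8.91 in vehicle and 104 ± 16.8 after PGF2alpha (SD, n = 3), and IFNG, the T and NK cell cytokine that induces CCL8, read 49.8 ± 3.76 and 19.9 ± 4.46. Without the filter neither passed (limma adjusted p = 0.48 and 0.295). CCL28, a mucosal chemokine, read 32 ± 9.79 and 108 ± 13.2 (adjusted p = 0.116). The granulocyte growth factor receptor CSF3R read 49.7 ± 36.0 and 146 ± 49.8 (adjusted p = 0.209). All these vehicle signals lay below the median of every array.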
